A study of Mus musculus with 9 samples.

Results

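The host by genotype interaction asks, gene by gene, whether the response to a self-antigen in the thymic host is the same in control cells and in cells labelled as lacking Nr4a1 and Nr4a3. It is the change between RIPmOVA and WT hosts in double knockout (DKO) OT-II thymocytes minus the same change in control OT-II thymocytes. A value below 0 means a weaker rise or a stronger fall in the RIPmOVA host under the DKO label, and a value above 0 the opposite. All values of the interaction are differences of log2(RPKM + 0.5), where RPKM counts the reads per kilobase of exon, scaled to the reads of the library. All 9 libraries entered it, and 11569 of the 24594 genes of the table were tested because 2 or more libraries reached an RPKM of 1. Of these, 272 passed that filter only through libraries of 1 group, 196 of them through DKO and 49 through OT-II libraries of RIPmOVA hosts.

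The cells were CD4+ CD8- CD69+ thymocytes with the Valpha2 and VBeta5 chains of the OT-II T cell receptor, which recognizes an ovalbumin peptide. Irradiated hosts received marrow of 3 donors at once, and thymi were taken after 4.7 weeks. Control OT-II donors were Nr4a1+/+ and Nr4a3+/+ and were F1 mice of BoyJ and B6.Cg-Tg(TcraTcrb)425Cbn/J, the strain with the OT-II receptor. DKO OT-II donors were Nr4a1-/- and Nr4a3-/- on C57BL/6, so genotype and donor strain cannot be told apart. The third donor was WT without the transgene, and its cells were not sequenced. WT hosts were BoyJ mice without ovalbumin, and RIPmOVA hosts were F1 mice of BoyJ and the strain Tg(Ins2-TFRC/OVA)296Wehi/WehiJ on C57BL/6, in which the rat insulin promoter drives membrane-bound ovalbumin. That promoter is active in pancreatic islets and in epithelium of the thymic medulla. The methods of the study describe the WT hosts, too, as F1 offspring of RIPmOVA and BoyJ mice. If the WT hosts were BoyJ, host strain and the antigen cannot be told apart. OT-II libraries numbered 2 from WT and 2 from RIPmOVA hosts, and DKO-labelled libraries 3 from WT and 2 from RIPmOVA hosts. They came from 5 chimeras, of which 4 gave both genotypes and 1 with a WT host gave DKO-labelled cells only. Libraries and chimeras are called DKO, WT and RIPmOVA after their labels. The 2 genotypes of such a chimera shared 1 thymus, and each chimera had 1 host type.

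NR4A proteins are orphan nuclear receptors whose genes are switched on within minutes to hours of T cell receptor signalling. As monomers they bind the element AAAGGTCA and can activate or repress transcription. CD4 single-positive thymocytes that meet a strong self-antigen in the medulla may be deleted, become regulatory T cells or survive in an unresponsive state called anergy. In that setting NR4A factors are known for links to cell death, to Foxp3 and to genes of anergic and exhausted T cells.

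The 300 bases around an annotated start of the 2 genes that passed the adjusted test, Rln3 and Eno3, are shown because NR4A receptors are the factors removed. The windows are those of RefSeq on GRCm38.p6, from 250 bases before the start to 50 after it, written 5′ to 3′ on the strand of the gene, and capitals mark AGGTCA with any AAAGGTCA around it. The Rln3 window is chr8:84044930-84045229 (minus strand), and the Eno3 window is chr11:70656926-70657225 (plus strand). The annotated span of Eno3 begins further upstream, at 70653125, so its window surrounds a start inside that span.
Rln3: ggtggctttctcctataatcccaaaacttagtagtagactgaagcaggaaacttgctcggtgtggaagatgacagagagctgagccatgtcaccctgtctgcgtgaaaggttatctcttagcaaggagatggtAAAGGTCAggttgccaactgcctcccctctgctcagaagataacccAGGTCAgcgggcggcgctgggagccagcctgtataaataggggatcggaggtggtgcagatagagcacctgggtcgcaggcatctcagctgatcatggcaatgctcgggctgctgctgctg
Eno3: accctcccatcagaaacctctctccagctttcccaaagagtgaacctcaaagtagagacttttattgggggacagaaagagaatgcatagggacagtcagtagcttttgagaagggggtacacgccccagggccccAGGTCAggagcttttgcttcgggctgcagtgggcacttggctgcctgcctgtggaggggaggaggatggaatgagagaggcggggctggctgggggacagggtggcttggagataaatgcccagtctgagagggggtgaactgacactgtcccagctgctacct
In the Rln3 window, AAAGGTCA begins 117 bases before the start and a further AGGTCA 71 bases before it. In the Eno3 window, AGGTCA begins 114 bases before the start. AAAGGTCA on either strand was present in 1.51% of the 32851 promoter windows of this length, and AGGTCA, which is part of it, in 16.3%. Of the 12 genes named below for the lowest interactions, 11 had a window in the RefSeq table, 1 of them with AAAGGTCA and 4 with AGGTCA. Of the 12 named for the highest, 8 had a window, 0 with AAAGGTCA and 2 with AGGTCA. A match to these letters is a description of the window and not a measured site.

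Depth was 15520000 to 25050000 reads per library. Gene-level RPKM sums all exons, also those outside a deleted part, so it is no test of the genotype labels, on which each direction below depends. Nr4a1 was 60.7 and 86.1 RPKM in OT-II and 60.1, 80.2 and 87.7 RPKM in DKO libraries of WT chimeras. In RIPmOVA chimeras it was 260.0 and 229 RPKM in OT-II and 282 and 235 RPKM in DKO libraries. The 8 T cell markers summed to 2059 to 2398 RPKM in every library. Of 7 B cell markers, 2 passed the filter, and their list summed to 2.82 to 10.7 RPKM. The 11 myeloid and dendritic cell markers summed to 12.3 and 22.3 RPKM in OT-II libraries of RIPmOVA chimeras and to 3.42 to 11.9 RPKM in the other 7. Reads on sensory receptor genes, which thymocytes should not express, served as a measure of background reads. Scaled to library size (RPM), they numbered 1033 and 1472 in DKO and 548 and 293 in OT-II libraries of RIPmOVA chimeras, against 417 to 1129 in WT chimeras. The share of genes at 0 was 8.3% and 9.6% in DKO and 18.4% and 20.6% in OT-II libraries of RIPmOVA chimeras, so this background and the genotype cannot be told apart there. In bulk samples, fewer cells with a transcript and less transcript per cell cannot be told apart either.

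Responses to the RIPmOVA host that were weaker under the DKO label involved 2 genes at the adjusted threshold, Rln3 and Eno3, and 0 genes responded more strongly at that threshold. Calling a gene required a limma adjusted p no larger than 0.05 and an interaction of 1 or more in size. The called lower genes were 0.0173% and the called higher genes 0.0% of the 11569 tested. With the chimera as replicate block, which pairs the genotypes of a thymus, 0 genes were called. At an unadjusted p of 0.05 or less, 404 genes (3.49%) lay below 0 and 674 (5.83%) above 0, together 1078 or 9.32%. Apart from Rln3 and Eno3 these genes are not called, and the counts serve as the background for each functional class below. Of all genes, 5236 had an interaction below 0 and 6333 above 0, with a median of 0.032. The split of 404 and 674 became 584 and 591 with quantile normalization, 502 and 444 with the replicate block, and 224 and 194 with a covariate for background reads.

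The lower and higher sides are described by the sign of the host change in each genotype and by level. Of the 404 genes below 0, 269 had a positive host change in OT-II and a negative one in DKO libraries, 85 a positive one in both and 50 a negative one in both. Of the 674 genes above 0, 527 had a negative host change in OT-II and a positive one in DKO libraries, 95 a positive one in both and 52 a negative one in both. These genes were picked by the difference of the same changes, so opposite signs were favoured by the choice. A sign was counted at any size, such as the change of -0.015 of Rln3 in DKO libraries. No share over all genes stands beside these splits, so they do not show a reversed response. The median level of the lower genes was 10.1 RPKM and that of the higher genes 2.38 RPKM. In the tercile of genes with the lowest mean level, 86 lay below 0 and 396 above 0 at an unadjusted p of 0.05 or less. In the tercile with the highest level, the counts were 176 and 115. The median interaction was 0.29 in the lowest and -0.033 in the highest tercile. Sensory receptor genes followed the pattern of the lowest tercile, since 162 passed the filter, 46 lay above 0 and 0 below 0 at this p, and their median interaction was 1.496. With the covariate, which was built from these genes, that median was -0.19. Of the 674 higher genes, 130 kept their direction and an unadjusted p of 0.05 or less with the covariate and 329 with the block. Of the 404 lower genes, 95 did so with the covariate and 276 with the block.

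**Figure D1:**
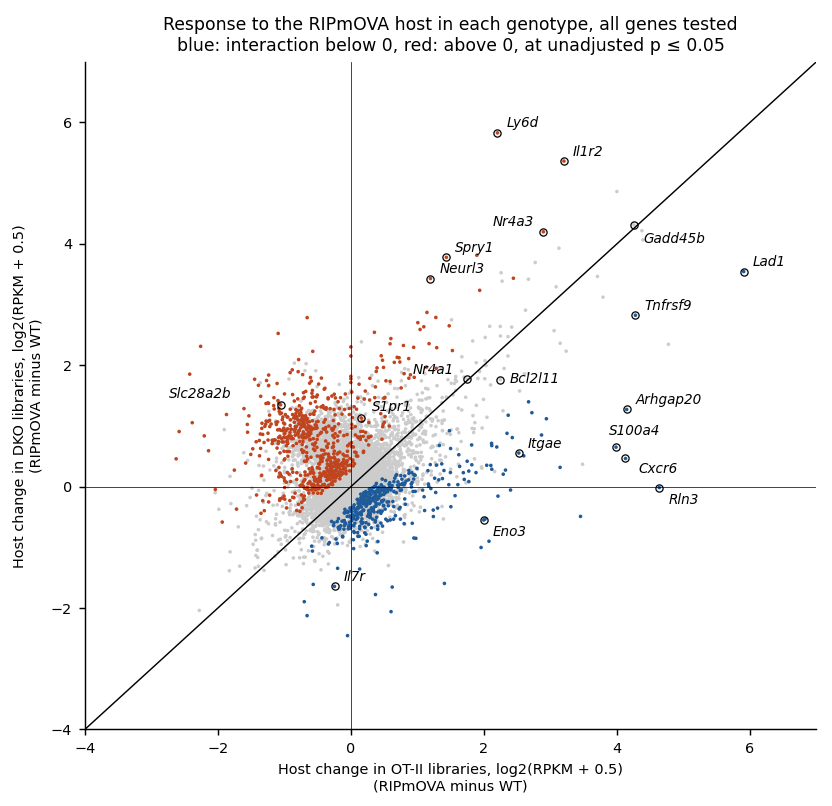
Change between RIPmOVA and WT hosts in OT-II libraries (horizontal axis) and in DKO libraries (vertical axis), in log2(RPKM + 0.5), for each of the 11569 genes tested. Genes on the diagonal have an interaction of 0, the 404 genes in blue lie below 0 and the 674 in red above 0 at an unadjusted p of 0.05 or less, and circles mark genes described in the text.

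**Figure D2:**
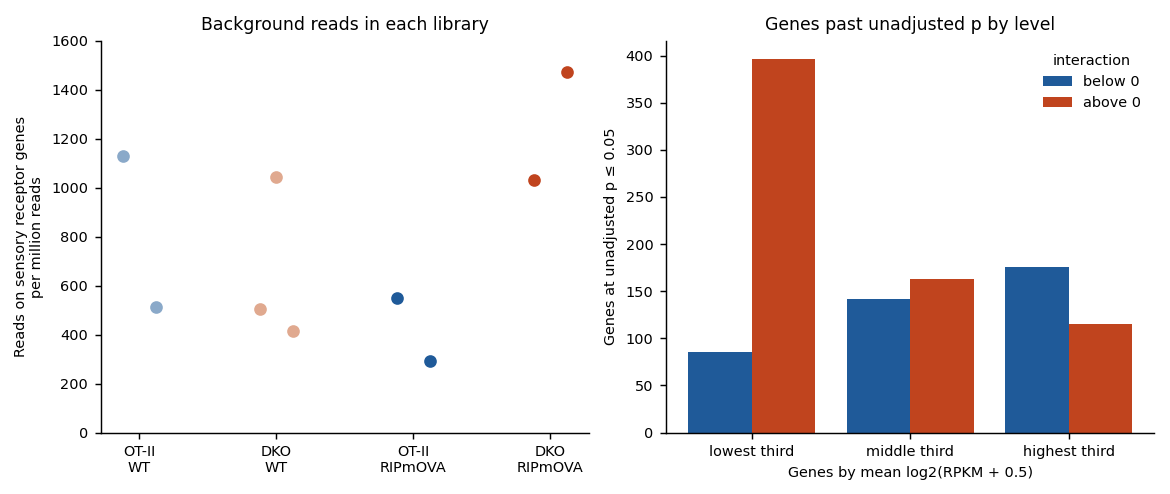
Left, reads on sensory receptor genes in each library, in RPM, with 1 point per library; both DKO libraries of RIPmOVA chimeras, at 1033 and 1472, lie above both OT-II libraries of those chimeras, at 548 and 293. Right, number of genes with an interaction below 0 (blue) or above 0 (red) at an unadjusted p of 0.05 or less in terciles of genes by mean level, with 86 and 396 in the lowest tercile.

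Rln3 (Entrez gene 212108), which encodes relaxin-3, a peptide of the insulin and relaxin family, was high in OT-II cells of RIPmOVA chimeras and low in every other library. Its level was 0.407 and 1.37 RPKM in OT-II and 0.905, 0.782 and 0.315 RPKM in DKO libraries of WT chimeras. In RIPmOVA chimeras it was 38.3 and 26.5 RPKM in OT-II and 0.617 and 0.632 RPKM in DKO libraries. Both OT-II libraries of RIPmOVA chimeras stood above the other 7, which overlapped each other. They held 401 and 407 reads, and the DKO libraries of the same chimeras held 8 and 7. The change between hosts was 4.64 in OT-II and -0.015 in DKO libraries, and the interaction was -4.65 (SE 0.50, limma adjusted p = 0.0363). Eno3 (Entrez gene 13808) encodes the muscle form of enolase, an enzyme of glycolysis. It was 4.10 and 5.22 RPKM in OT-II and 3.00, 2.60 and 2.82 RPKM in DKO libraries of WT chimeras. In RIPmOVA chimeras it was 23.9 and 16.7 RPKM in OT-II and 1.48 and 2.08 RPKM in DKO libraries. OT-II libraries of RIPmOVA chimeras were again the highest, and here the 4 groups did not overlap. The change between hosts was 2.00 in OT-II and -0.55 in DKO libraries, and the interaction was -2.55 (SE 0.27, limma adjusted p = 0.0363). The study named Rln3 and Eno3 as Nr4a-dependent in these libraries, so their direction is not independent evidence. Within chimeras, DKO minus OT-II was -5.12 and -4.58 for Rln3 in RIPmOVA chimeras and 0.63 and -0.54 in WT chimeras. For Eno3 it was -3.63 and -2.74 in RIPmOVA and -0.39 and -0.88 in WT chimeras. With the replicate block, the interaction of Rln3 was -4.89 (limma adjusted p = 0.114) and that of Eno3 -2.54 (limma adjusted p = 0.257). With the covariate for background reads, the values were -4.62 and -2.59, both at a limma adjusted p of 0.424. Eno3 remained called without replicate 2 of OT-II of WT chimeras and without replicate 2 of DKO cells of RIPmOVA chimeras, and Rln3 without the first of these only. Leaving out any of the other 8 libraries gave Rln3 a limma adjusted p of 0.0702 to 0.22, and leaving out any of the other 7 gave Eno3 one of 0.0702 to 0.22.

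**Figure D3:**
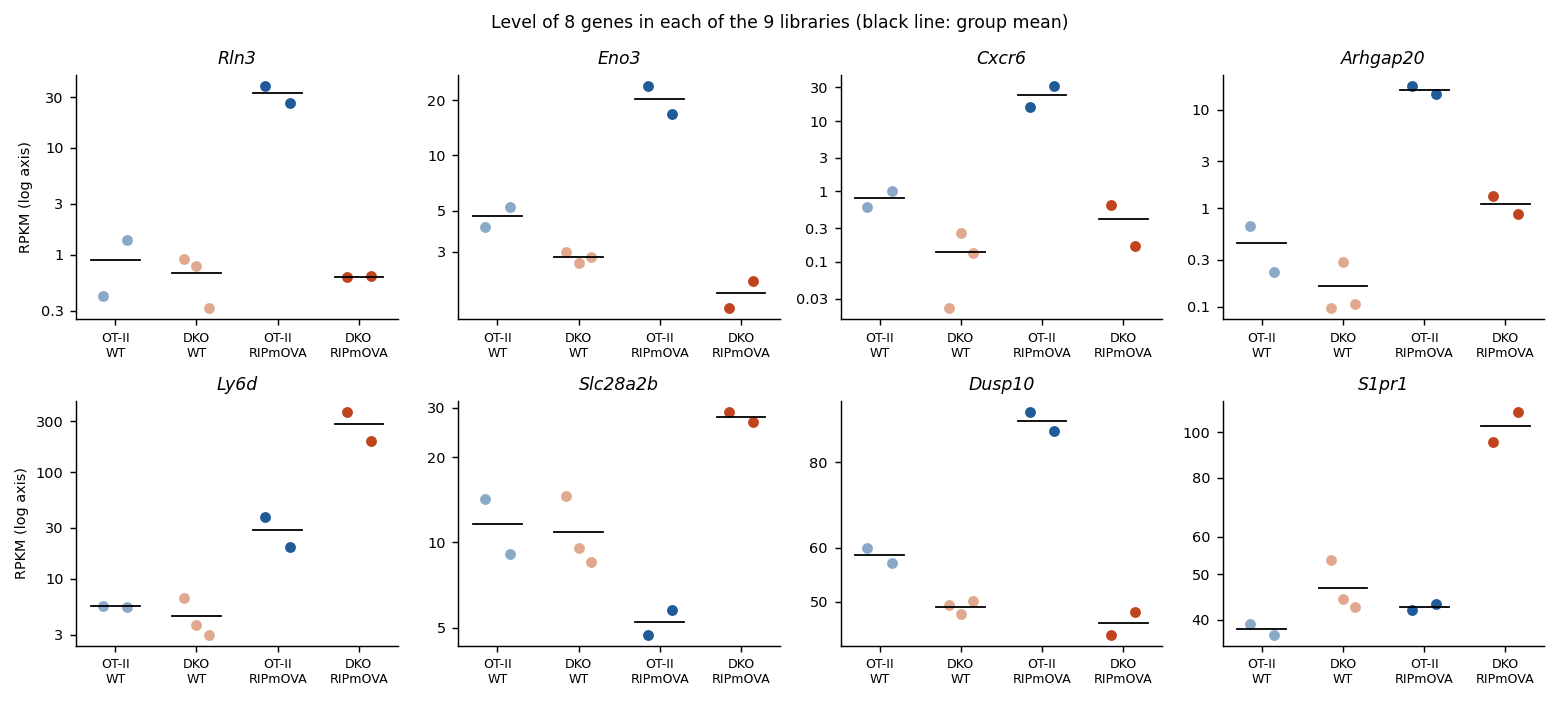
RPKM on a log axis of 8 genes in each of the 9 libraries, with 1 point per library and a black line at the group mean. Rln3, Eno3, Cxcr6 and Arhgap20 are highest in both OT-II libraries of RIPmOVA chimeras, Ly6d, Slc28a2b and S1pr1 in both DKO libraries of RIPmOVA chimeras, and Dusp10 is highest in OT-II of RIPmOVA chimeras, at 94.8 and 89.0 RPKM.

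Further genes at the lower end were mostly highest in OT-II cells of RIPmOVA chimeras, and none of them passed the adjusted threshold. With Rln3 and Eno3 they are the 12 lowest interactions among genes with a mean RPKM of at least 2, an unadjusted p of 0.05 or less and differences between genotypes that separate the RIPmOVA from the WT chimeras. Such separation alone was common, with 2180 of all genes (18.8%) separating on the lower and 2671 (23.1%) on the higher side. Cxcr6, the receptor of the chemokine CXCL16, was 15.6 and 31.7 RPKM in OT-II libraries of RIPmOVA chimeras and 0.642 and 0.166 RPKM in DKO ones. In WT chimeras it was 0.610 and 1.02 RPKM and 0.0220, 0.261 and 0.136 RPKM in the same order. The interaction was -3.67 (SE 0.54, limma adjusted p = 0.0913), and only the OT-II libraries of RIPmOVA chimeras stood apart. S100a4, a calcium-binding protein of motile and memory T cells, was 12.3 and 18.0 RPKM in OT-II and 0.652 and 0.764 RPKM in DKO libraries of RIPmOVA chimeras. Its interaction was -3.34 (SE 0.61, limma adjusted p = 0.168), with 0.057 to 1.20 RPKM in the 5 libraries of WT chimeras. Arhgap20, a GTPase-activating protein, was 17.5 and 14.3 RPKM against 1.35 and 0.868 RPKM in RIPmOVA chimeras, with an interaction of -2.88 (SE 0.41, limma adjusted p = 0.0913). Lad1, the anchoring filament protein ladinin, was 42.1 and 39.4 RPKM in OT-II and 8.64 and 4.61 RPKM in DKO libraries of RIPmOVA chimeras, against 0.03 to 0.231 RPKM in WT chimeras. Its change between hosts was 5.91 and 3.54, and its interaction -2.36 (SE 0.35, limma adjusted p = 0.0913). With 0.1 in place of 0.5 added to the RPKM, the interaction of Lad1 was -2.01. Limma voom on reads recovered from the RPKM gave -1.28 (limma voom unadjusted p = 0.326). The study also named Arhgap20 and Lad1 as Nr4a-dependent in these libraries, so their direction is not independent evidence.

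Nkg7, a protein of cytotoxic granules, was 18.6 and 15.6 RPKM in OT-II and 1.86 and 0.859 RPKM in DKO libraries of RIPmOVA chimeras, with an interaction of -2.02 (SE 0.37, limma adjusted p = 0.168). Itgae, the integrin chain CD103 that binds E-cadherin, was 7.28 and 13.8 RPKM against 1.46 and 1.44 RPKM, with an interaction of -1.97 (SE 0.44, limma adjusted p = 0.286). Pla2g4f, a phospholipase A2, had 7.67 and 6.52 RPKM against 1.23 and 1.90 RPKM and an interaction of -1.82 (SE 0.52, limma adjusted p = 0.455). In these 3 genes the OT-II libraries of RIPmOVA chimeras again lay above all other libraries. The remaining members of the 12 were less even. Rpl39l, a close copy of a ribosomal protein gene whose reads may be shared, was 0 and 3.39 RPKM in the 2 OT-II libraries of WT chimeras. Mmp11, a matrix metalloproteinase, was 0.0450 and 5.04 RPKM in these libraries, and its exons overlap Chchd10 on the other strand, so that reads of the pair cannot be told apart without strand. Akr1c18, a steroid dehydrogenase, was highest in DKO libraries of WT chimeras, at 38.8, 19.3 and 35.4 RPKM, and 9.89 and 7.05 RPKM in those of RIPmOVA chimeras. Their interactions were -3.94, -3.00 and -2.15, with limma adjusted p of 0.462, 0.522 and 0.51.

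Xcl1, Ctsw and Cd74 were chosen after their values were seen. Xcl1, a chemokine that attracts dendritic cells, was 5.45 and 4.97 RPKM in OT-II and 0.560 and 0 RPKM in DKO libraries of RIPmOVA chimeras, and its interaction was -2.83. It passed the filter only through these OT-II libraries, so a difference from the other groups was built in. Ctsw, a cysteine protease of cytotoxic cells, was 25.9 and 34.3 RPKM against 15.6 and 15.8 RPKM, with an interaction of -1.01 (limma unadjusted p = 0.00115). Of the 5 listed markers of NK and gamma delta T cells, the table held 4, of which 2 were tested. Klrd1, which passed only through OT-II libraries of RIPmOVA chimeras, had an interaction of -1.69, and Ncr1 lay on the other side at 1.16. The list summed to 2.22 and 3.75 RPKM in OT-II and to 1.73 and 1.78 RPKM in DKO libraries of RIPmOVA chimeras, against 0.298 to 1.74 RPKM in WT chimeras. Of 5 genes of MHC class II presentation, 4 passed the filter, 3 of them only through OT-II libraries of RIPmOVA chimeras. H2-Ab1 was 2.58 and 2.15 RPKM there and 0.489 and 0.266 RPKM in DKO libraries, with an interaction of -1.58. The list summed to 40.9 and 45.0 RPKM in OT-II and to 26.0 and 32.7 RPKM in DKO libraries of RIPmOVA chimeras, against 8.14 to 18.0 RPKM in WT chimeras. Most of that sum was Cd74, the invariant chain, whose interaction was 0.14. The 7 thymic epithelial markers, of which 2 passed the filter, summed to 10.8 and 14.3 RPKM in DKO libraries of RIPmOVA chimeras and to 5.27 to 10.04 RPKM in the other 7 libraries. The 3 genes of the CD8 lineage list summed to 63.7 to 103 RPKM. The 5 erythroid genes in the table summed to 1.05 to 1.93 RPKM in RIPmOVA chimeras and to 1.23 to 25.3 RPKM in WT chimeras. The part of such cells in these results was not tested.

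At the higher end, named by the same rule, DKO cells of RIPmOVA chimeras mostly carried the highest levels. Ly6d, a GPI-anchored LY6 protein, was 5.54 and 5.47 RPKM in OT-II and 6.61, 3.73 and 3.00 RPKM in DKO libraries of WT chimeras. In RIPmOVA chimeras it reached 37.6 and 19.7 RPKM in OT-II and 365 and 197 RPKM in DKO libraries. Its change between hosts was 2.20 in OT-II and 5.83 in DKO libraries, and the interaction was 3.62 (SE 0.54, limma adjusted p = 0.0913). Slc28a2b, a nucleoside transporter gene with a near-identical neighbour, was 4.72 and 5.75 RPKM in OT-II and 29.0 and 26.6 RPKM in DKO libraries of RIPmOVA chimeras, against 8.53 to 14.6 RPKM in WT chimeras. Its level was thus lower than in WT chimeras in OT-II and higher in DKO libraries, with an interaction of 2.41 (SE 0.35, limma adjusted p = 0.0913). Bambi-ps1, a pseudogene, had the same order, at 6.04 and 6.77 RPKM and 31.6 and 34.4 RPKM in RIPmOVA chimeras against 11.9 to 22.4 RPKM in WT chimeras, with an interaction of 1.98 (SE 0.31, limma adjusted p = 0.0967). Lbp, the lipopolysaccharide-binding protein, was 1.16 and 1.43 RPKM in OT-II and 10.8 and 8.95 RPKM in DKO libraries of RIPmOVA chimeras, with 1.94 to 4.50 RPKM in WT chimeras. Its interaction was 2.39 (SE 0.43, limma adjusted p = 0.158).

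Neurl3, an E3 ubiquitin ligase that is also in the anergy list, was 6.09 and 8.19 RPKM in OT-II and 19.1 and 12.1 RPKM in DKO libraries of RIPmOVA chimeras. Its change between hosts was 1.20 in OT-II and 3.43 in DKO libraries, with an interaction of 2.23 (SE 0.41, limma adjusted p = 0.168). Plaur, the urokinase receptor, was 1.69 and 1.54 RPKM against 7.80 and 7.10 RPKM in these hosts, with an interaction of 1.73 (SE 0.33, limma adjusted p = 0.187). Ms4a4c, a membrane protein of the CD20 family, was 11.5 and 12.9 RPKM against 58.2 and 41.0 RPKM, and Ncf1, a subunit of the phagocyte NADPH oxidase, 0.549 and 1.18 RPKM against 8.94 and 4.29 RPKM. In these 4 genes the DKO libraries of RIPmOVA chimeras did not overlap any other library. In 3 further genes the pair of DKO libraries was uneven. Il1r2, the decoy receptor of interleukin-1, was 70.4 and 18.1 RPKM there and 17.3 and 12.4 RPKM in OT-II. Spry1, a Sprouty inhibitor of the ERK pathway, was 23.3 and 3.20 RPKM against 1.27 and 1.27 RPKM, and Nrn1, the GPI-anchored protein neuritin, 27.5 and 10.3 RPKM against 2.42 and 1.57 RPKM. Retnlg, a resistin-like secreted protein, was 5.11 and 3.28 RPKM and overlapped the libraries of WT chimeras. The interactions of Il1r2, Spry1, Nrn1 and Retnlg had limma adjusted p of 0.462, 0.522, 0.455 and 0.51. The study named Spry1 and Neurl3 as over-expressed without Nr4a1 and Nr4a3 in these libraries, so their direction is not independent evidence. With the covariate for background reads, 9 of the 12 lowest kept their direction at an unadjusted p of 0.05 or less, all but Rpl39l, Mmp11 and Akr1c18, and 9 of the 12 highest, all but Ms4a4c, Il1r2 and Retnlg. With the replicate block 11 and 10 did so, all but Mmp11, Spry1 and Retnlg. The naming rule asked for separation within chimeras, so passing with the block was partly built in. Among all genes at a mean RPKM of 2 or more past the unadjusted p, 356 lay below and 366 above 0. Of these, 258 and 269 did so with the block, and 67 and 97 with the covariate.

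**Figure D4:**
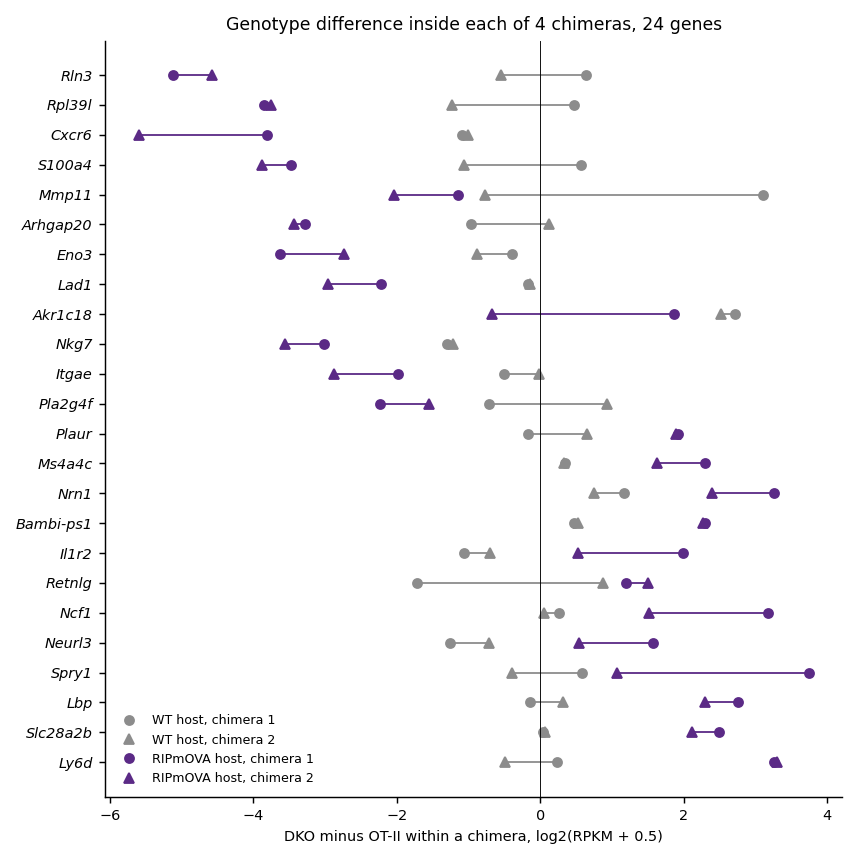
DKO minus OT-II level inside each chimera that gave both genotypes, in log2(RPKM + 0.5), for the 12 genes with the lowest and the 12 with the highest interaction under the naming rule, with 2 WT-host chimeras in grey and 2 RIPmOVA-host chimeras in purple. The rule requires the purple pair to lie on one side of the grey pair; for Rln3 it lies at -5.12 and -4.58 and for Ly6d at 3.26 and 3.29.

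Of the 11569 genes, 18 had an adjusted p of 0.1 or less, 9 below and 9 above 0. Of those not named so far, 5 are given here, chosen after their values were seen. Rasl11b, a small GTPase of the Ras family, was 24.1 and 18.4 RPKM in OT-II and 4.21 and 3.63 RPKM in DKO libraries of RIPmOVA chimeras, with an interaction of -1.62 (SE 0.21, limma adjusted p = 0.0913). Rnf19a, an E3 ubiquitin ligase, was 26.6 and 27.6 RPKM against 66.8 and 49.5 RPKM, with 1.33 (SE 0.18, limma adjusted p = 0.0913). Tagap, a GTPase-activating protein of activated T cells, was 37.6 and 38.3 RPKM against 116 and 81.2 RPKM, with 1.30 (SE 0.21, limma adjusted p = 0.0967). Dpp4, the surface peptidase CD26, was 16.9 and 21.4 RPKM against 41.1 and 33.9 RPKM, with 1.20 (SE 0.19, limma adjusted p = 0.0967), and Nod1, an intracellular receptor of peptidoglycan, 2.85 and 2.33 RPKM against 13.9 and 11.5 RPKM, with 1.62 (SE 0.24, limma adjusted p = 0.0913). Each of these 5 genes kept its direction and an unadjusted p of 0.05 or less both with the covariate and with the block.

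The 37 functional lists below are read against the background of 3.49% of genes below 0 and 5.83% above 0 at an unadjusted p of 0.05 or less, and against the median of 0.032 over all genes. Within a list, "lower" and "higher" stand for an interaction below or above 0 at that p, and no member other than Eno3 was called. Members named beyond 2 on each side of a list were chosen after their values were seen, and a gene can stand in more than 1 list.

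**Figure D5:**
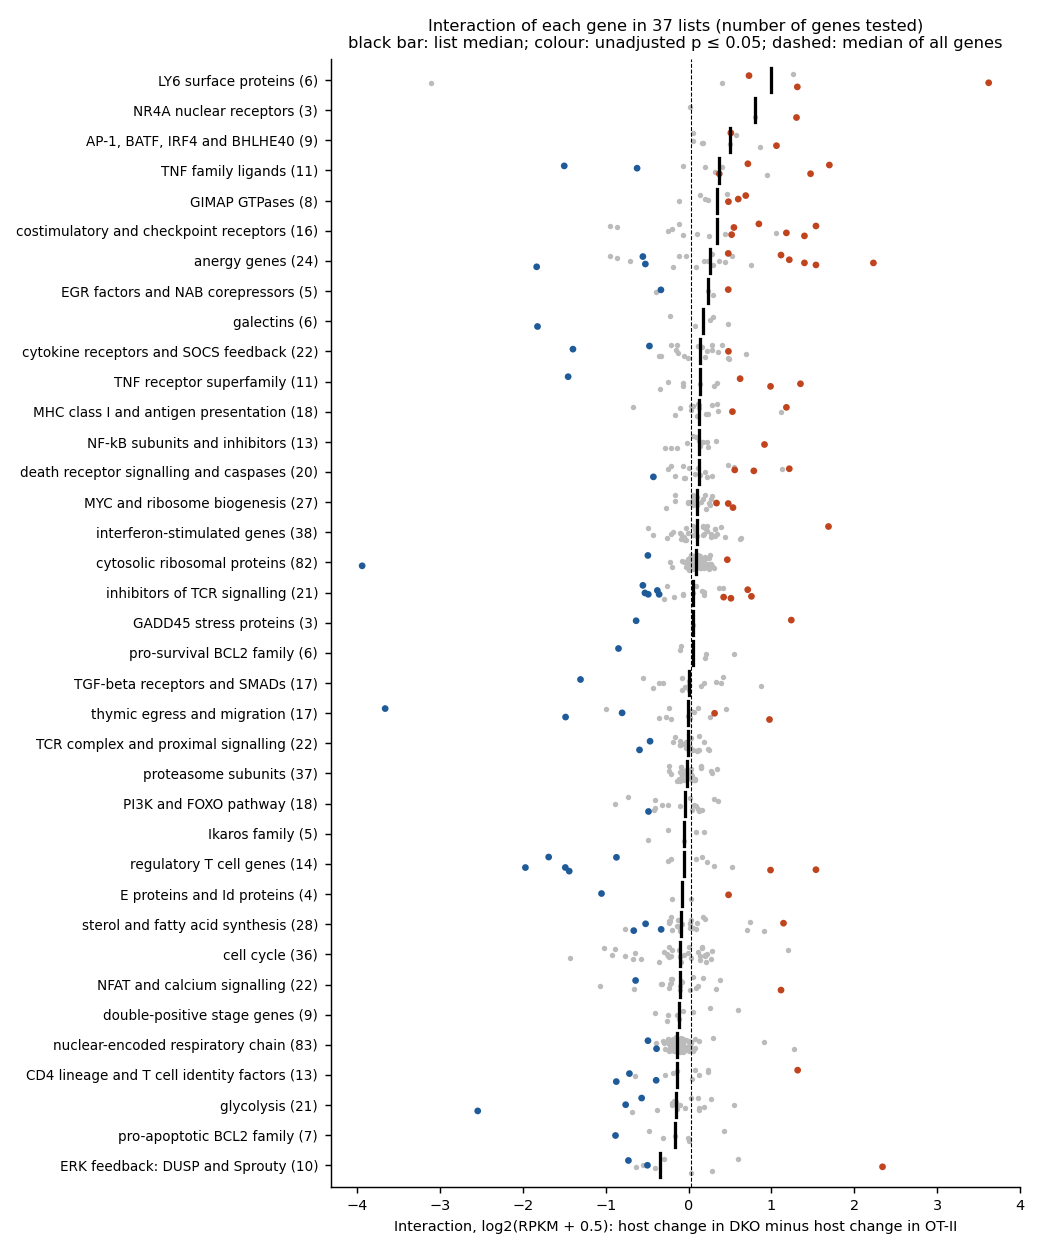
Interaction in log2(RPKM + 0.5) of each gene tested in the 37 lists, with the number of genes tested beside each name. The black bar is the list median, the dashed line the median of all genes at 0.032, and coloured points have an unadjusted p of 0.05 or less; medians run from -0.35 in the ERK feedback list to 0.99 in the LY6 list.

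Of the transcription factors of the early antigen response, the AP-1 list lay furthest above 0 among lists of more than 3 genes. All 3 NR4A genes were tested, and Nr4a1 changed between hosts by 1.75 (OT-II) and 1.77 (DKO), with an interaction of 0.023 (SE 0.28) that was -0.018 with median-of-ratios rescaling and -0.022 with quantile normalization. Nr4a3 was 5.66 and 3.72 RPKM in OT-II and 16.5 and 14.1 RPKM in DKO libraries of RIPmOVA chimeras, with an interaction of 1.30 (limma unadjusted p = 0.00768). Nr4a2 had an interaction of 0.80 (limma unadjusted p = 0.132). Of the list of EGR zinc-finger factors and their NAB corepressors, 5 of 6 were tested. Egr2 was higher, at 43.8 and 41.7 RPKM in DKO and 33.1 and 34.4 RPKM in OT-II libraries of RIPmOVA chimeras, with an interaction of 0.48 (limma unadjusted p = 0.00203), and Nab2 was lower, at -0.33 (limma unadjusted p = 0.0242). All 9 tested members of the AP-1, BATF, IRF4 and BHLHE40 list, of 14 listed, had interactions above 0, with a median of 0.50. With quantile normalization 8 of them, and with the replicate block 7, remained above 0. Of these, 2 were higher, Fos at 1.06 (limma unadjusted p = 0.0124) and Batf at 0.51 (limma unadjusted p = 0.0293). The 13 NF-kB subunits and inhibitors had a median of 0.13, and Bcl3, an atypical inhibitor that acts in the nucleus, was higher at 0.92 (limma unadjusted p = 0.032). The 22 genes of NFAT and calcium signalling had a median of -0.10. Nfatc1, the inducible NFAT factor, was 30.1 and 30.5 RPKM in OT-II and 79.95 and 55.5 RPKM in DKO libraries of RIPmOVA chimeras, against 28.6 to 32.1 RPKM in WT chimeras, with an interaction of 1.12 (SE 0.21, limma adjusted p = 0.168). Ppp3ca, a catalytic subunit of calcineurin, was lower at -0.64 (limma unadjusted p = 0.0111). Of the 5 Ikaros family genes, 0 were lower or higher, and Ikzf2, which encodes Helios, had an interaction of -0.25 (limma unadjusted p = 0.627).

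Signalling genes moved in both directions. Of 22 genes of the T cell receptor complex and proximal signalling, 11 had interactions below 0 and 11 above 0, and 2 were lower. Plcg1, the phospholipase that makes the calcium signal, was 52.0 and 52.4 RPKM in OT-II and 36.6 and 35.4 RPKM in DKO libraries of RIPmOVA chimeras, with an interaction of -0.59 (limma unadjusted p = 0.0223). Inhibitors of this signalling had 5 lower and 4 higher members of 21 tested. The lower members were the kinase Csk at -0.49 (limma unadjusted p = 0.0289), the adaptor Sh2d2a at -0.36 (limma unadjusted p = 0.035), and Dgkz, Dok1 and Dok2. The higher members were the phosphatase Ptpn22 at 0.51 (limma unadjusted p = 0.0125), the adaptor Lax1 at 0.76 (limma unadjusted p = 0.0159), Sla and Ubash3b. The ERK feedback list had the lowest median of the 37 lists, at -0.35 over 10 genes, and 2 were lower and 1 higher. Dusp10, a phosphatase of JNK and p38, was 59.96 and 57.1 RPKM in OT-II and 49.4, 48.1 and 50.2 RPKM in DKO libraries of WT chimeras. RIPmOVA chimeras had 94.8 and 89.0 RPKM in OT-II and 44.8 and 48.4 RPKM in DKO libraries. Both OT-II libraries of RIPmOVA chimeras lay above all other libraries. Its interaction was -0.73 (SE 0.11, limma adjusted p = 0.0967). The study named Dusp10 as Nr4a-dependent in these libraries, so its direction is not independent evidence. Dusp1, a phosphatase of MAP kinases, was lower at -0.50 (limma unadjusted p = 0.0146), and Spry1 was the higher member. Of 18 genes of the PI3K and FOXO pathway, Pik3r5, a regulatory subunit, was lower at -0.49 (limma unadjusted p = 0.0333), and of 17 TGF-beta receptors and SMADs the median was 0.0038. In that list Tgfbr3, the co-receptor betaglycan, was 23.9 and 24.6 RPKM in OT-II and 8.51 and 12.3 RPKM in DKO libraries of RIPmOVA chimeras, against 15.9 to 21.5 RPKM in WT chimeras, with an interaction of -1.31 (SE 0.24, limma adjusted p = 0.168). Acvrl1, a receptor kinase of this family that lies close to Nr4a1, was 25.7 and 31.3 RPKM in OT-II and 0.984, 1.48 and 0.996 RPKM in DKO libraries of WT chimeras, and its interaction was 0.39 (limma unadjusted p = 0.145), or -0.28 with quantile normalization.

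Costimulatory and checkpoint receptors had 6 higher and 0 lower of 16 tested, with a median of 0.34. Ctla4, an inhibitory receptor for CD80 and CD86, was 11.7 and 20.4 RPKM in OT-II and 23.2 and 22.1 RPKM in DKO libraries of RIPmOVA chimeras. In WT chimeras it was 9.47 and 5.10 RPKM and 4.94, 2.08 and 3.19 RPKM, and its interaction was 1.54 (limma unadjusted p = 0.0149). Cd226, an activating receptor for CD155, had 0.55 (limma unadjusted p = 0.00361). The 4 others were Lag3 at 1.40, the PD-1 ligands Pdcd1lg2 at 1.18 and Cd274 at 0.85, and Btla at 0.52. The study named Ctla4, Lag3, Cd274 and Pdcd1lg2 as over-expressed without Nr4a1 and Nr4a3 in these same libraries. Their direction is thus not independent evidence, and the count lends no support. With the covariate for background reads 1 of the 16 was higher, Ctla4 at a limma unadjusted p of 0.0311, and that of Cd226 was 0.0527. TNF receptors had 3 higher and 1 lower of 11 tested, and 0 higher and 1 lower with that covariate. Tnfrsf9, the receptor 4-1BB, was the lower member, at 111 and 90.5 RPKM in OT-II and 12.2 and 5.84 RPKM in DKO libraries of RIPmOVA chimeras. Its change between hosts was 4.28 in OT-II and 2.82 in DKO libraries, with an interaction of -1.46 (limma unadjusted p = 0.0107). With 0.1 in place of 0.5 added to the RPKM, the interaction of Tnfrsf9 was -1.08 (limma unadjusted p = 0.0606). The study named Tnfrsf9 as Nr4a-dependent in these libraries, so its direction is not independent evidence. Tnfrsf25, Tnfrsf4 (OX40) and Tnfrsf14 were higher, at 1.35, 0.99 and 0.62. The level of Tnfrsf4 in RIPmOVA chimeras was 121 and 116 RPKM in OT-II and 142 and 82.1 RPKM in DKO libraries, which overlapped. In WT chimeras it was 24.5 and 18.6 RPKM in OT-II and 8.50, 10.25 and 9.98 RPKM in DKO libraries. TNF ligands had 4 higher and 2 lower of 11 tested, with a median of 0.37. The ligand of OX40, Tnfsf4, was lower at -1.50 (limma unadjusted p = 0.0201), although its level was at most 3.97 RPKM. Cd40lg, the ligand of CD40, was 179.8 and 180.0 RPKM in OT-II and 102 and 111 RPKM in DKO libraries of RIPmOVA chimeras, with an interaction of -0.62 (limma unadjusted p = 0.0182). Tnfsf8 was higher at 1.47 (limma unadjusted p = 0.00674) and Ltb at 0.37 (limma unadjusted p = 0.00555), followed by Tnfsf14 and Fasl. Fasl was 7.73 and 11.1 RPKM in OT-II and 7.82 and 6.03 RPKM in DKO libraries of RIPmOVA chimeras. In WT chimeras it was 2.89 and 2.885 RPKM in OT-II and 0.804, 1.02 and 1.40 RPKM in DKO libraries.

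Among 22 cytokine receptors and SOCS proteins, 2 were lower and 1 higher. Il7r, the receptor chain that carries the survival signal of interleukin-7, was 32.3 and 39.4 RPKM in OT-II and 50.1, 49.3 and 56.0 RPKM in DKO libraries of WT chimeras. The level in RIPmOVA chimeras was 23.7 and 38.0 RPKM in OT-II and 13.7 and 19.2 RPKM in DKO libraries. Both DKO libraries of RIPmOVA chimeras were the lowest of the 9, and the interaction was -1.40 (SE 0.30, limma adjusted p = 0.253). Socs1, a brake on cytokine signalling, was lower at -0.47 (limma unadjusted p = 0.0126), and the interferon-gamma receptor chain Ifngr1 was higher at 0.48 (limma unadjusted p = 0.0142).

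Among death and survival genes, members past the unadjusted threshold lay on both sides. Of 13 pro-apoptotic BCL2 family genes 7 were tested, and Bbc3, which encodes PUMA, was lower at -0.89 (limma unadjusted p = 0.0206). Bcl2l11, which encodes BIM, had an interaction of -0.48 (limma unadjusted p = 0.0931) and its neighbour Acoxl one of -0.20 (limma unadjusted p = 0.565). Bcl2l11 was 6.86 and 6.32 RPKM in OT-II and 1.34, 2.02 and 1.49 RPKM in DKO libraries of WT chimeras, and 34.6 and 31.7 and 7.93 and 5.51 RPKM in RIPmOVA chimeras, so the genotype difference was present in both hosts. Of 6 pro-survival genes tested, Bcl2 was lower. It was 38.8 and 35.1 RPKM in OT-II and 33.9, 32.2 and 40.9 RPKM in DKO libraries of WT chimeras. Levels in RIPmOVA chimeras were 36.8 and 42.9 RPKM in OT-II and 19.8 and 21.9 RPKM in DKO libraries. The latter pair lay below all other libraries, and the interaction was -0.86 (SE 0.18, limma adjusted p = 0.253). Of 20 genes of death receptor signalling and caspases, 3 were higher and 1 lower. Birc3, an inhibitor of apoptosis, was higher at 0.56 (limma unadjusted p = 0.00572), and it kept an unadjusted p of 0.05 or less with the covariate and with the block. Dffa, the inhibitor of the caspase-activated nuclease, was lower at -0.43 (limma unadjusted p = 0.0129). The 3 GADD45 stress genes went 3 ways, with Gadd45a at -0.63 (limma unadjusted p = 0.032), Gadd45b at 0.057 (limma unadjusted p = 0.83) and Gadd45g at 1.24 (limma unadjusted p = 0.0213). Gadd45b was 52.7 and 41.6 RPKM in OT-II and 51.3 and 35.4 RPKM in DKO libraries of RIPmOVA chimeras, against 1.43 to 2.10 RPKM in WT chimeras.

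Fate genes split within their lists. Of 14 regulatory T cell genes, 5 were lower and 2 higher, with a median of -0.057. Of the 5, Foxp3 and Lrrc32 passed the filter only through OT-II libraries of RIPmOVA chimeras, where they were high, so they had to differ and the count lends no support. Foxp3, the defining factor of the lineage, was 1.90 and 3.31 RPKM in OT-II and 0.0920 and 0.0770 RPKM in DKO libraries of RIPmOVA chimeras, with an interaction of -1.69. Its exons overlap other annotated genes on both strands. Gpr83, a G protein-coupled receptor, was 31.9, 19.0 and 25.8 RPKM in DKO libraries of WT chimeras and 9.49 and 9.42 RPKM in those of RIPmOVA chimeras, while OT-II libraries were at 10.6 to 14.7 RPKM in either host. Its interaction was -1.49 (limma unadjusted p = 0.000791), and Itgae, Lrrc32 at -1.44 and Ahr at -0.87 were the other 3. The 2 higher members were Ctla4 and Tnfrsf4. The study discussed several of these genes for these libraries, so their direction is not independent evidence. Of 24 anergy genes tested, 6 were higher and 3 lower, with a median of 0.26. The higher ones included Neurl3, Nfatc1, Egr2, Ctla4 and Lag3. Of these, the study named Neurl3, Ctla4 and Lag3 as over-expressed without Nr4a1 and Nr4a3 in these libraries, so they are not independent evidence. The lower ones were Lgals3, which encodes galectin-3, at -1.83, Ndrg1 at -0.52 (limma unadjusted p = 0.0209) and the diacylglycerol kinase Dgkz at -0.55 (limma unadjusted p = 0.0425). With the covariate the list had 6 higher and 2 lower members. Lgals3 was also the 1 lower member of the 6 galectins, whose median was 0.17. Its level was at most 2.10 RPKM and it too passed only through OT-II libraries of RIPmOVA chimeras, so its place in either count lends no support.

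Factors of CD4 lineage and T cell identity had 3 lower and 1 higher of 13 tested, and 0 and 0 with the covariate for background reads. Gata3, which directs CD4 commitment, was 57.6 and 56.6 RPKM in OT-II and 34.7 and 31.3 RPKM in DKO libraries of RIPmOVA chimeras, with an interaction of -0.87 (limma unadjusted p = 0.00504), and its exons overlap annotated noncoding genes. Runx3, a factor of the CD8 lineage, had -0.71 (limma unadjusted p = 0.00441) and the chromatin organizer Satb1 -0.39 (limma unadjusted p = 0.0124). Myb was higher at 1.32 (limma unadjusted p = 0.0123). Of 4 tested E and Id proteins, Id2 was lower and Id3 higher. Id2, an inhibitor of E proteins, was 54.0 and 74.3 RPKM in OT-II and 59.3, 67.7 and 79.6 RPKM in DKO libraries of WT chimeras. RIPmOVA chimeras had 80.4 and 93.7 RPKM in OT-II and 45.5 and 44.4 RPKM in DKO libraries, with an interaction of -1.05 (SE 0.23, limma adjusted p = 0.272). Id3 was 157 to 179.5 RPKM in WT chimeras, and in RIPmOVA chimeras 108 and 95.1 RPKM in OT-II and 142 and 143 RPKM in DKO libraries, with an interaction of 0.48 (limma unadjusted p = 0.0046). Of 9 double-positive stage genes, 0 were lower or higher. Genes of egress and migration had 3 lower and 2 higher of 17 tested, and a median of -0.006. S1pr1, the receptor that carries thymocytes out of the thymus, was 39.2 and 37.2 RPKM in OT-II and 53.6, 44.2 and 42.5 RPKM in DKO libraries of WT chimeras. RIPmOVA chimeras gave 42.0 and 43.2 RPKM in OT-II and 95.3 and 110.5 RPKM in DKO libraries, which lay above all others, with an interaction of 0.98 (SE 0.17, limma adjusted p = 0.139). Cd69, which binds S1pr1 and was part of the sort, was higher too, at 0.31 (limma unadjusted p = 0.0167). The lower members were Cxcr6, Gpr183, a receptor of oxysterols, at -0.80 (limma unadjusted p = 0.0156), and the semaphorin receptor Plxnd1 at -1.49.

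The LY6 list had the highest median, 0.99 over 6 genes, with 3 higher, Ly6d, Ly6e at 0.73 (limma unadjusted p = 0.0072) and Ly6a at 1.31 (limma unadjusted p = 0.0294). Of the 6, 5 had interactions above 0 and 1 below, at -3.11, which was not lower at the unadjusted p. With the replicate block, 1 member was lower and 4 were higher. With the covariate for background reads the median was 0.57 and 1 member was higher. Of the 8 GIMAP GTPases, which support lymphocyte survival, 7 had interactions above 0 and 3 were higher, namely Gimap5 at 0.48 (limma unadjusted p = 0.0128), Gimap3 at 0.60 (limma unadjusted p = 0.0371) and Gimap7. Their median was 0.35, and with the same covariate it was -0.00065 with 0 members higher. Of 18 genes of MHC class I and antigen presentation, 15 had interactions above 0, or 13 with median-of-ratios rescaling, and 2 were higher, H2-Q7 at 1.18 (limma unadjusted p = 0.0143) and H2-K1 at 0.53 (limma unadjusted p = 0.0476), against 0 with the covariate. The H2, LY6 and GIMAP families hold close copies, so their reads may be split between members. Of 38 interferon-stimulated genes, 1 was higher, Ifi44 at 1.68 (limma unadjusted p = 0.0221), and the median was 0.097. Of these, 24 had interactions above 0, or 20 with the replicate block, and with the covariate 0 were higher and the median was 0.015.

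Metabolic and housekeeping lists shifted by small amounts. Glycolysis had 3 lower and 0 higher of 21 tested, with a median of -0.15. Apart from Eno3, these were Eno1, the ubiquitous enolase, and Pfkfb3, which makes an activator of phosphofructokinase. Eno1 was 157 and 146 RPKM in OT-II and 143, 131 and 163 RPKM in DKO libraries of WT chimeras. The RIPmOVA level was 168 and 155 RPKM in OT-II and 102 and 106 RPKM in DKO libraries, with an interaction of -0.57 (limma unadjusted p = 0.00434). Pfkfb3 had -0.76 (limma unadjusted p = 0.0142). Sterol and fatty acid synthesis had 3 lower and 1 higher of 28 tested, with Dhcr7 at -0.66 (limma unadjusted p = 0.00618), Pmvk at -0.52 (limma unadjusted p = 0.041) and Srebf1 at -0.33 against Insig1 at 1.15 (limma unadjusted p = 0.0379). Of 83 nuclear-encoded respiratory chain genes, 68 had interactions below 0, or 50 with the covariate for background reads, with a median of -0.14, and 2 were lower, Uqcrq at -0.49 (limma unadjusted p = 0.0333) and Ndufc2 at -0.39 (limma unadjusted p = 0.0387). With that covariate the median was -0.031. Of 27 MYC and ribosome biogenesis genes, 22 had interactions above 0, with a median of 0.10 and 3 higher, among them the nucleolar proteins Nop58 at 0.48 (limma unadjusted p = 0.0132) and Wdr12 at 0.54 (limma unadjusted p = 0.016) and the RNA polymerase I subunit Polr1b. Of 82 cytosolic ribosomal protein genes, 69 had interactions above 0, or 57 with median-of-ratios rescaling, with a median of 0.092. There Rpl39l and Rps27l, at -0.49 (limma unadjusted p = 0.0185), were lower and Rpl32l, at 0.47 (limma unadjusted p = 0.0488), higher, and all 3 are paralogs of other ribosomal protein genes. Of 36 cell cycle genes and 37 proteasome subunits, 0 were lower or higher, with medians of -0.10 and -0.018. The cell cycle median was -0.36 with quantile normalization. Genes of a list share their libraries and are not independent replicates.

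The counts of lower and higher members moved with the replicate block by more than 1.5 times in several lists. With the block, the NFAT list had 3 lower members, the inhibitors of T cell receptor signalling 2 lower and 5 higher, the cytokine receptors 5 higher and the regulatory T cell list 3 lower and 3 higher. MHC class I had 5 higher, the interferon-stimulated genes 4 higher and the ribosomal proteins 5 higher members, and the respiratory chain had 0 lower. Over all genes the block gave 502 lower and 444 higher. The covariate for background reads, with 224 and 194 over all genes, moved more lists. With it, the NR4A, NF-kB and GADD45 lists, proximal T cell receptor signalling, the pro-apoptotic BCL2 family, sterol synthesis and the respiratory chain had 0 members lower or higher. The inhibitors of T cell receptor signalling had 1 lower and 3 higher, the cytokine receptors 1 lower and 0 higher, and the TNF ligands 1 lower and 3 higher. Egress and migration had 1 lower and 2 higher members, and the MYC list and the ribosomal proteins 0 lower and 1 higher each. The EGR list and the E and Id proteins had 0 lower and 1 higher, the death receptor list 0 lower and 3 higher, the ERK feedback list 1 lower and 1 higher, and the NFAT list 1 lower and 2 higher.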

How the data were processed

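RNA of about 2000 sorted thymocytes per sample was amplified as polyadenylated RNA (SMART-seq v4, Nextera XT) and sequenced as paired ends. The authors aligned the reads with STAR to mm10 with GENCODE annotation, removed duplicates marked by Picard, summed reads on the exons of each Entrez gene in R 3.5.2 and deposited the values as RPKM, with 1 column per library and gene lengths. The STAR and Picard versions and the use of strand are not given in the sources used here. RPKM values came out as whole reads in 100% of the low values checked (within 0.1 read, where 20% would by chance), which gave depths of 15520000 to 25050000 reads. A floor of 3 reads is 0.12 to 0.193 RPKM for a gene of 1 kb, for counting error only.

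The interaction was fitted with limma 3.58.1 (lmFit and eBayes with an intensity trend, R 4.3.3) on log2(RPKM + 0.5) with 4 group means over 9 libraries, and p-values were adjusted by Benjamini-Hochberg over 11569 genes. On this scale changes between groups are understated at low RPKM, more so in the genotype with the lower level. An interaction can therefore come out too large or too small. With 0.1 in place of 0.5, it went from -2.36 to -2.01 for Lad1 and from 1.92 to 1.28 for Nrn1. For Rln3 it went the other way, from -4.65 to -5.20. Residual degrees of freedom were 5, and with the chimera as replicate block 2. P-values of the main fit measure the spread between libraries of a group, each from another chimera. That fit treats the 2 genotypes of a chimera as independent, although they shared a thymus. Only the fit with the block pairs them. Per the labels, same-numbered OT-II and DKO libraries of a host came from the same mouse, so the numbers pair them. Over genes, replicate 1 minus replicate 2 in OT-II and the same difference in DKO libraries correlated at -0.15 in WT and -0.08 in RIPmOVA chimeras. On simulated data with 200 changed genes of 11569, 79.9% of interactions of 1.5 to 2 and 96.3% of those of 3 to 4 were recovered, with 3.83% false calls and 0 calls without change. The simulated noise was normal and independent between libraries, with the moderated variance of each gene. It held no shared thymus and no difference in background reads. These rates therefore check the fit and do not give its power or false calls in the real libraries.

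Genes were named by 4 rules: those called; the 12 lowest and 12 highest interactions among genes with a mean RPKM of 2 or more, an unadjusted p of 0.05 or less and separated within-chimera differences, leaving out predicted and small RNA genes; up to 2 on each side of a list at that p; and 12 genes that the study discusses. The members, lists and rules were chosen with earlier results of these data known, so the direction of list members is not independent evidence. Alternatives changed the pseudocount, filter, scaling, trend and pairing, added a covariate for background reads (reads on sensory receptor genes) or left out each library. Limma voom on recovered reads and a crossed pairing were added after seeing the data. In GENCODE, exons of Arhgap20, Spry1, Ncf1, Nrn1, Ms4a4c, Nab2, Bcl3, Plcg1, Dusp1, Bcl2, Gadd45a, Ndrg1, Myb, Wdr12, Ikzf2, Acvrl1, Cd274, Ahr, Xcl1, Ctsw, Tagap, Dpp4 and Dgkz overlap another gene on the other strand, those of S100a4, Tgfbr3, Gimap5, Gimap7, Nop58, Rnf19a and Cd74 on the same strand and those of Gata3, Satb1, Foxp3 and Srebf1 on both, so their reads may be shared. A few members of the lists are counted but not reported by name here.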

Additional observations from a re-analysis of the deposited data

Results flagged for a closer look

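The interaction of Rln3 was -4.65 and that of Eno3 -2.55. Both stand out because the change between hosts differed between the genotypes in a test of that difference itself, with a limma adjusted p of 0.0363 for both. The study had named both as Nr4a-dependent in these same libraries, so their direction is not independent evidence. Both OT-II libraries of RIPmOVA chimeras carried the higher level in 2 of 2 chimeras, and neither gene passed with the chimera as replicate block.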

How the results depend on the processing

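The number of genes called was 2 in the fit as reported. It was 0 with a pseudocount of 0.1, a filter at 5 RPKM, the background-read covariate, the chimera as replicate block, the crossed replicate block and voom on recovered reads, 8 with no filter, and 0 to 159 when 1 library was left out. It was 3 with a pseudocount of 1 and 2 with a filter on mean RPKM, median-of-ratios rescaling, quantile normalization or no intensity trend, the last with 0 of the same genes. The largest number of calls came without replicate 2 of OT-II from WT chimeras. Leaving out a library from any group of 2 likewise leaves 1 library assumed to vary like the others. The library left here, replicate 1, had 15520000 reads and 1129 RPM on sensory receptor genes, against 514 RPM in replicate 2. Why this setting gave the most calls was not tested. Genes below 0 at an unadjusted p of 0.05 or less numbered 224 with the covariate, 269 with the crossed block and 238 to 1099 with 1 library left out. Those above 0 numbered 2506 with no filter, 261 at 5 RPKM, 194 with the covariate, 444 with the block and 321 to 1431 with 1 library left out, the lowest and highest again without replicates 1 and 2 of OT-II from WT chimeras. With the pairing crossed in WT chimeras, chosen after seeing the data, 269 lay below and 595 above 0. Besides these counts, the calls of Rln3 and Eno3 ended with the block, the covariate, a pseudocount of 0.1, a filter at 5 RPKM, no intensity trend and voom. Neither gene was among the 8 called with no filter, of which 7 lay above 0.

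Of the named genes, 6 turned in direction under some alternative. Nr4a1 was -0.018 with median-of-ratios rescaling, -0.022 with quantile normalization and -0.23 to 0.27 with 1 library left out. Acoxl was 0.32 with a pseudocount of 0.1 and 0.67 with voom, and Acvrl1 -0.28 with quantile normalization. Leaving out 1 library gave -0.21 to 0.32 for Gadd45b, -0.69 to 0.20 for Ikzf2 and -0.20 to 0.49 for Cd74. The cause was not tested.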
